A study of Mus musculus with 24 samples.

Results

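Ubiquitin ligases, the conjugating enzymes that supply them and the proteases that reverse their work were followed in RNA bound to STAU2 in the developing mouse cortex. The group holds 186 of the 7705 genes that have at least 1 exonic peak in the table, and 325 of the 13754 rows (peaks on a given strand) of those genes. Members were chosen by symbol alone (E2 enzymes and other Ube genes, HECT ligases of the Herc, Huwe and Nedd4 families, Rnf, Trim, cullins, F-box, Klhl, Kbtbd, Btbd, Dcaf, Usp and Otud). The symbol rule uses no measured value, but it was set with earlier results of these data known. All 186 passed the filter on low counts. A symbol is not a function: Usp6nl, which encodes a Rab GTPase-activating protein and no protease, is among the 186, and Ube2v1 and Ube2v2 encode E2 variants that lack the catalytic cysteine.

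Ubiquitin is activated by an E1 enzyme, passed to an E2 enzyme and attached to a protein with the help of a ligase, which chooses the target. HECT ligases take the ubiquitin onto themselves first, RING and TRIM ligases hold the loaded E2 next to the target, and cullins are scaffolds that reach their targets through F-box, BTB or DCAF proteins. Deubiquitinases remove the tag. In the embryonic cortex the system is known for driving the cell cycle of progenitors through the anaphase-promoting complex, and for controlling neuronal migration, axon growth and synapse formation. STAU2 is a double-stranded RNA-binding protein known to carry RNAs into dendrites and into one daughter of a dividing radial glial cell.

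The data are 12 immunoprecipitations with an antibody against STAU2 from brain cortex of C57BL/6 embryos, 3 at each of 4 embryonic stages (E11.5 and E13.5, then E15.5 and E17.5), with no other treatment or allele given in the labels. The labels do not say whether the 3 libraries of a stage come from separate animals, so p-values measure the spread between these libraries. The column names fit both an immunoprecipitation and its input, and were read as immunoprecipitations because the table lists peaks. Inputs were not analysed here, so changed binding of an RNA and a changed amount of it cannot be told apart, and neither can fewer cells of a type and less RNA per cell.

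Summed over the exonic rows of genes, the E11.5 libraries held 1955143 to 2456345 counts and the later libraries 3367561 to 4696553. The share of these counts in members was 1.75% ± 0.117 (SD, n = 3) at E11.5, and the 3 later stages in order had 1.90% ± 0.0156, 2.04% ± 0.231 and 1.95% ± 0.0915. Levels are CPM, the counts of a gene's exonic rows scaled to an equal library total after TMM scaling. Changes are log2 ratios ± standard error from edgeR's quasi-likelihood test, and a gene is called where the Benjamini-Hochberg adjusted p over all 7654 genes tested is below 0.05. Cortex markers were present at every stage (9 of 10 listed genes in the table, summed CPM 2890 to 4036 at E11.5 and 3278 to 4178 at E17.5). Other marker sums moved with stage. Neuronal markers (7 of 9 in the table) went from 397 to 502 CPM at E11.5 to 6328 to 7212 at E17.5, and cell-cycle markers (6 of 7) from 1009 to 1564 down to 104 to 166. Markers of meninges and mesenchyme (6 of 6) went from 374 to 449 CPM down to 4.30 to 5.96, and erythroid markers (2 of 7) from 46.9 to 53.8 down to 0 to 0.292. Radial glial markers (5 of 9) went from 456 to 654 CPM at E11.5 to 1128 to 1763 at E17.5, interneuron markers (5 of 8) from 219 to 277 to 991 to 1122, and vessel markers (2 of 5) from 16.0 to 30.3 down to 6.71 to 14.4. The 1 choroid plexus marker of 3 in the table stood at 8.02 to 12.5 CPM in E11.5 libraries and 710 to 954 in those of E13.5, then at 97.1 to 192 (E15.5) and 2.04 to 4.87 (E17.5), and the 1 microglial marker of 4 at 2.88 to 8.78 throughout. No list had a measured gene with 0 counts in all 3 libraries of a stage. The part these shifts have in the changes below was not tested.

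Across the whole interval, more members rose than fell. At E17.5 against E11.5, 65 members were higher and 47 lower, 60.2% of 186, beside a background of 58.6% of all genes (29.8% higher and 28.8% lower). The median change was 0.25 for members and 0.04 for all genes. The share of members called was close to the share of all genes. Of these 112 calls, 82 held with any 1 of the 12 libraries left out and 0 changed sign.

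The 3 steps between neighbouring stages differed. From E11.5 to E13.5, 29 members were called (17 higher, 12 lower), 15.6% against a background of 25.3% (14% higher, 11.3% lower), and 56 had an unadjusted p under 0.05, beside 36.9% of all genes. From E13.5 to E15.5, 1 member was called, Trim67, higher at E15.5, against a background of 0.745% (0.196% higher, 0.549% lower), and 19 had an unadjusted p under 0.05, beside 9.81% of all genes. From E15.5 to E17.5, 35 were called (20 higher, 15 lower), 18.8% against 21.9% (9.73% higher, 12.2% lower). The count of the first step was 18 without E13.5 replicate 1, that of the last step was 20 without E15.5 replicate 3 or E17.5 replicate 3 and 21 without E17.5 replicate 1, and the 1 call of the middle step was lost without any 1 of the 9 libraries of E13.5, E15.5 and E17.5. The comparisons of E13.5 and of E17.5 with E11.5 share the E11.5 libraries. Over the 4 stages jointly 92 members were called, 49.5% against 54.9%. Of these 92, the highest mean was at E17.5 in 54 genes, at E11.5 in 29, at E13.5 in 4 and at E15.5 in 5. E17.5 was the top stage for 58.7% of called members and for 41.3% of all called genes.

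The scaling bears on these splits. TMM factors were 0.812 to 0.847 at E11.5 and 1.02 to 1.14 later. Scaling by the summed counts alone moved the median change of all genes from 0.08 to 0.44 at E13.5 against E11.5 and from 0.04 to 0.34 at E17.5 against E11.5. The split of called members then became 42 higher and 6 lower in the first of these comparisons and 78 and 32 in the second. With DESeq2 size factors it was 13 and 15 at E13.5 against E11.5. In the last step the split was 23 higher and 11 lower with DESeq2 size factors, and 13 and 17 with scaling by the summed counts.

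**Figure D1:**
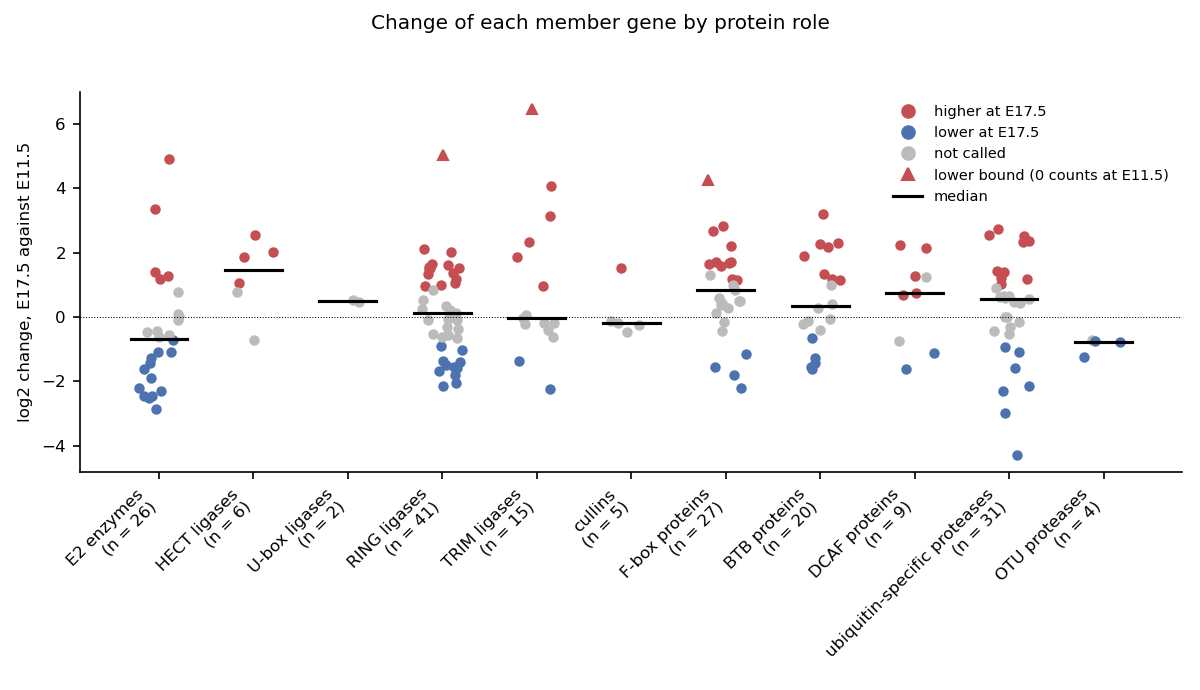
Each point is a member gene, placed by protein role on the x axis and by its log2 change at E17.5 against E11.5 on the y axis. Red points were called higher, blue points lower and grey points were not called, black lines are medians, and triangles are lower bounds for Trim67, Rnf112 and Fbxo41, which had 0 counts at E11.5. E2 enzymes have 13 genes called lower and 5 higher, HECT ligases 4 higher and 0 lower.

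E2 enzymes, which carry activated ubiquitin to the ligases, fell more often than they rose. Of 26 measured, 13 were lower at E17.5 than at E11.5 and 5 higher (median change -0.68), beside 28.8% and 29.8% of all genes. In the first step 6 of the 7 calls of E2 genes were also falls, beside 11.3% of all genes lower and 14% higher. With single libraries left out the counts at E17.5 against E11.5 were 12 to 13 lower and 5 higher. Ube2d3, a general-purpose E2 of many RING ligases, had 998, 1484 and 680 CPM in the E11.5 libraries, 304, 330 and 407 at E13.5, 172, 305 and 257 at E15.5, and 165, 119 and 153 at E17.5. All libraries of E11.5 lie above every later library, and the gene fell in the first step (-1.60 ± 0.31) and overall (-2.85 ± 0.32, a 7.23-fold drop).

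Ube2c, the E2 that starts ubiquitin chains for the anaphase-promoting complex, kept its level longer. It had 492, 1089 and 592 CPM at E11.5, 793, 546 and 842 at E13.5, 419, 625 and 301 at E15.5, and 141, 139 and 114 at E17.5. Its fall came in the last step (-1.77 ± 0.34), and its change in the first step was 0.01 ± 0.32, which was not called. Ube2s, which extends the chains that Ube2c starts, fell by 1.09 ± 0.27 on the log2 scale over the whole interval, from 1063 ± 116 CPM (SD, n = 3) to 500 ± 119, and its last step was 0.05 ± 0.27. The summed cell-cycle markers, given above, also fell between these stages.

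Other E2 genes that fell over the interval were Ube2q2 (-2.52 ± 0.48), Ube2j2 (-2.47 ± 0.42), Ube2e3 (-2.32 ± 0.44) and Ube2f (-2.22 ± 0.26). Ube2f is an E2 of the ubiquitin-like protein NEDD8, which switches cullins on. Its libraries held 417, 371 and 296 CPM at E11.5 and 69.3, 70.5 and 91.9 at E17.5, with no overlap. Ube2r2, Ube2k, Ube2l3, Ube2n and Ube2d2a were also lower, by 1.08 to 1.90 on the log2 scale. The only exonic peak of Ube2m was not called (-0.42).

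The E2 genes that rose include the largest fold of the class. Ube2ql1, a little-studied relative of Ube2q1, had 23.5, 38.9 and 32.7 CPM at E11.5, 206, 178 and 110 at E13.5, 301, 754 and 266 at E15.5, and 565, 1094 and 1205 at E17.5. E11.5 and E17.5 do not overlap, and the change was 4.92 ± 0.46, a 30.2-fold rise (adjusted p = 1.92e-07, edgeR). Within this rise the later stages overlap, since E15.5 replicate 2 exceeded E17.5 replicate 1. Ube2o, a large enzyme that joins E2 and ligase activity, had 11.05, 8.65 and 14.8 CPM at E11.5 and 165, 97.7 and 89.1 at E17.5 (3.35 ± 0.42), and most of that came in the last step (1.998 ± 0.372). Ube2h, Ube2z and Ube2e2 rose by 1.18 to 1.41.

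Per kilobase of peak covered and averaged over the 4 stages, the highest members were mostly E2 genes: Ube2b had 2013 CPM per kb, Ube2s 1694, Ube2c 1154, Ube2d3 1106 and Ube2r2 1001, against a median of 82.0 over members. Peak widths here are genomic and count intron bases, and in 1 Nedd4l peak only 6.8% of the bases are exonic. Genes whose peaks reach into introns can therefore rank lower. The order differed between stages: at E11.5 Ube2s (2626 CPM per kb) and Ube2d3 (2603) came first, and at E17.5 Ube2b (2446), Ube2ql1 (2094) and the protease gene Usp22 (1906). Ube2b, an E2 for histone H2B and DNA-damage tolerance, and Ube2d1 were not called over the 4 stages. The stage means of Ube2d1, in order, were 832 ± 262 CPM (SD, n = 3), 730 ± 229, 1023 ± 595 and 877 ± 163, within the spread of its libraries. It is a close paralogue of Ube2d3, which fell, and the handling of reads that map to both copies is not given in the sources used here.

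HECT ligases went the other way. Of 6 measured, 4 rose at E17.5 against E11.5 and 0 fell (median 1.46), beside 29.8% and 28.8% of all genes. With single libraries left out, 4 to 5 rose and 0 to 1 fell. Nedd4l, which tags ion channels and receptors at the membrane, had 79.3, 75.3 and 62.3 CPM at E11.5, 163, 203 and 233 at E13.5, 193, 159 and 209 at E15.5, and 325, 276 and 278 at E17.5. It rose in the first step (1.46 ± 0.24), stayed between 159 and 233 CPM over the middle stages and was 2.02 ± 0.25 higher overall. All 5 of its peaks were called higher, by 1.19 to 3.28.

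Herc1, a giant HECT ligase known for its part in Purkinje cell survival, had 29.3, 35.2 and 27.8 CPM at E11.5 and 193, 162 and 183 at E17.5 (2.54 ± 0.26). Its 5 peaks, 4 in coding exons and 1 in the 3' UTR, were all called higher, by 2.39 to 3.27. The 3' UTR peak is shared with the F-box gene Fbxl22 on the opposite strand, and the table counts each strand apart. Huwe1, a ligase for MYC and N-MYC that holds back progenitor proliferation, rose by 1.05 ± 0.27, from 134 ± 36.5 CPM (SD, n = 3) to 278 ± 52.2, and none of its single steps was called. Of the 4 Huwe1 peaks, 2 were called higher at E17.5 against E11.5, and the others were not called (0.54 and -0.13). Herc3 rose by 1.87 ± 0.29. Ube3c and Ube3b were not called. Nedd4 and Ube3a have no exonic row in the table.

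TRIM ligases, RING ligases with a B-box and a coiled coil, include Trim67, the member with the steepest estimated rise. Of 15 measured, 6 were higher and 2 lower at E17.5 than at E11.5, beside 29.8% and 28.8% of all genes. Their median change was -0.02, and 1 to 3 were lower with single libraries left out. Trim67, a TRIM ligase of neurons related to Trim9, had 0 counts in all 3 E11.5 libraries. It had 4.68, 3.10 and 4.56 CPM at E13.5, 14.4, 10.4 and 12.9 at E15.5, and 43.9, 43.7 and 60.8 at E17.5, so no stage overlaps another.

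Against a floor of 3 counts over the 3 E11.5 libraries, which covers counting error only, the level of Trim67 was higher by at least 7.35-fold at E13.5, 22.5-fold at E15.5 and 88.4-fold at E17.5. It rose from E13.5 to E15.5 by 1.60 ± 0.34 (adjusted p = 0.0414, edgeR) and from E15.5 to E17.5 by 1.97 ± 0.32. The middle call was lost without any 1 of the 9 libraries of E13.5, E15.5 or E17.5 (adjusted p up to 0.187), while the outer steps were called with any library left out.

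**Figure D2:**
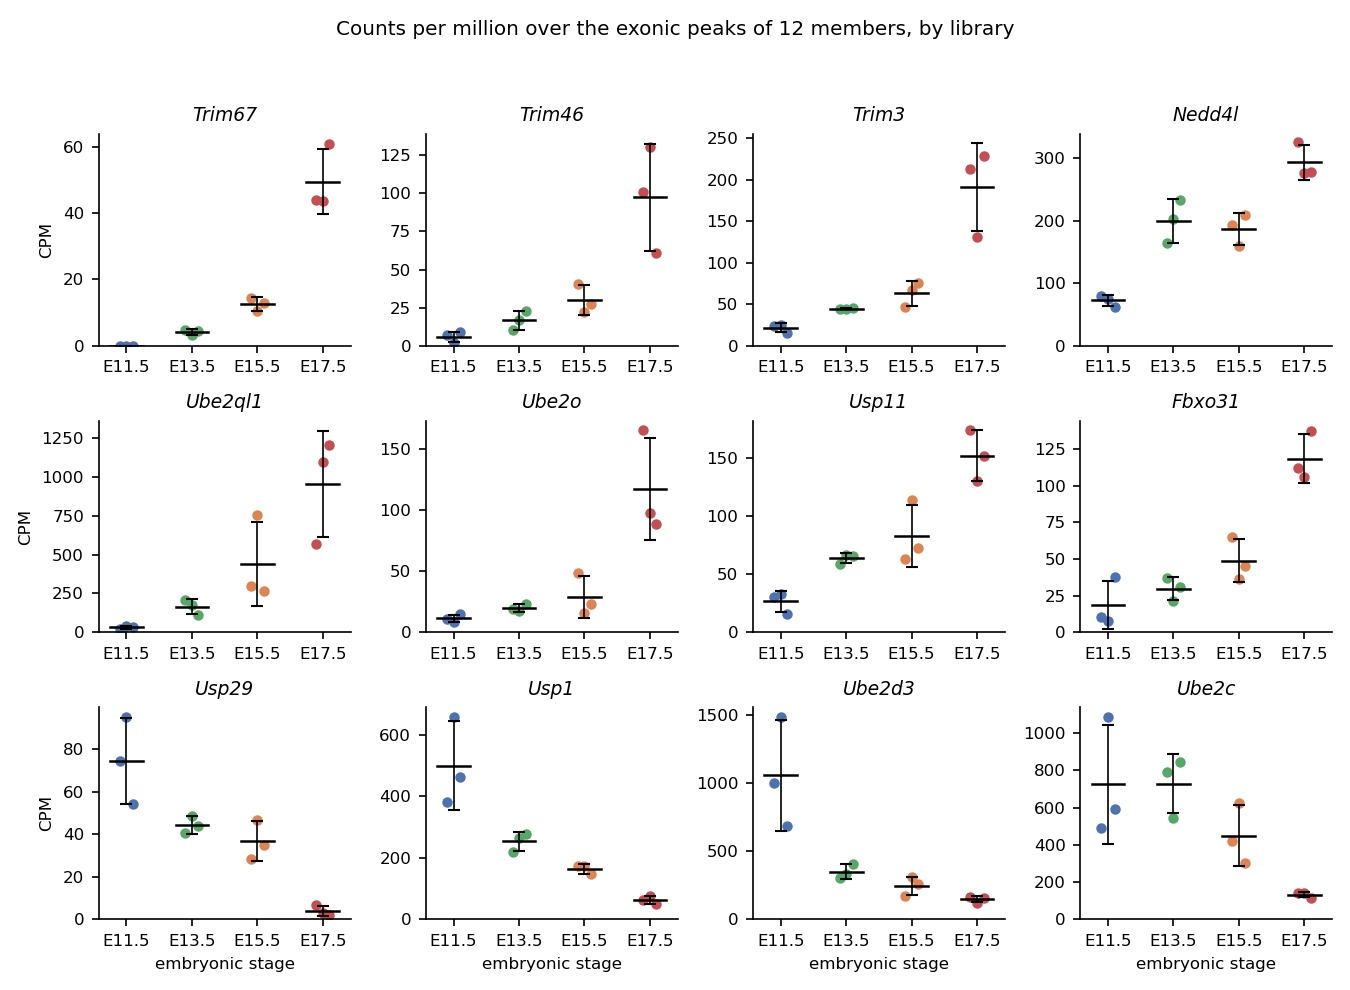
CPM over the exonic rows of 12 members (y axis, linear and starting at 0, with a scale for each gene) by stage (x axis). Points are the 3 libraries of a stage, horizontal bars their mean and vertical bars ± 1 SD. The top and middle rows show 8 genes that rise, from Trim67 at 0 CPM in every E11.5 library to 43.7 to 60.8 at E17.5, and the bottom row 4 that fall.

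Trim46, which bundles microtubules at the start of the axon, had 6.73, 1.85 and 8.64 CPM at E11.5, 10.5, 16.7 and 22.8 at E13.5, 40.7, 21.8 and 27.7 at E15.5, and 101, 131 and 60.8 at E17.5. The change was 4.07 ± 0.47, a 16.7-fold rise, and E17.5 lies above every other library. Trim3, a ligase of synaptic scaffold proteins, had 23.5, 25.3 and 15.4 CPM at E11.5 and 213, 131 and 229 at E17.5 (3.15 ± 0.31), with 1.60 ± 0.28 of it in the last step. Trim9, which acts in axon branching, rose by 2.32 ± 0.72, but its E11.5 libraries (0, 1.85 and 11.7 CPM) reach into those of E17.5 (11.6, 32.4 and 21.0). Trim59 was the opposite case, with 471, 501 and 534 CPM at E11.5 and 88.2, 166 and 62.5 at E17.5 (-2.25 ± 0.34). Trim71 and Trim2 have no exonic row.

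STAU2 binds RNA by its paired stretches, so the part of each peak that folds most firmly by itself is shown for the members with the steepest changes. For each peak, 300 spliced bases of a GENCODE transcript around it (GRCm38) were searched for the 30-base window of lowest predicted folding energy. A window had to lie inside the peak and cross no splice junction. Capitals mark the bases paired in the predicted fold, written 5′ to 3′ on the gene's strand. The energy of each fold is a prediction, not a measured STAU2 site. The 4 largest rises among members with a 3' UTR peak, 2 of them lower bounds, are Trim67 (ENSMUSG00000036913, window chr8:124831175-124831204, plus strand, -11.4 kcal/mol), Rnf112 (ENSMUSG00000010086, chr11:61448620-61448649, minus, -11.7), Ube2ql1 (ENSMUSG00000052981, chr13:69703913-69703942, minus, -9.7) and Trim46 (ENSMUSG00000042766, chr3:89234570-89234599, minus, -12.0).
Trim67: cacTGaGCCTCCaactcttcaGGAGGCCAc
Rnf112: cttgAGcTGTGGgGCctctGCgCCACACTg
Ube2ql1: agaacTGTGTTCTgaatgcaaAGGACACAc
Trim46: GTgCTCCTgagCCttactGGgaGGGAGgGC

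The falls are shown for comparison, from windows that lie wholly in coding exons in GENCODE, although the authors' table calls the Ube2d3 peak 3' UTR: Ube2d3 (ENSMUSG00000078578, chr3:135462958-135462987, plus, -5.2 kcal/mol), Ube2c (ENSMUSG00000001403, chr2:164771955-164771984, plus, -8.8) and Usp1 (ENSMUSG00000028560, chr4:98934511-98934540, plus, -11.9). Each of these 7 genes has 1 exonic peak. In all of them the capitals form a stem with an unpaired loop, which the choice of the lowest energy favours. The Ube2d3 stem has the weakest predicted energy of the 7, but the number of windows searched was not held equal between peaks. Over the whole stretch around each peak the weakest fold is instead that of Trim67, at -22.1 kcal/mol, the weakest of all member peaks. Ube2d3 has -56.8 kcal/mol by that measure, and the other genes shown have -94.2 (Rnf112) to -58 (Usp1). The strength of the printed stem therefore does not stand for the fold of the whole stretch.
Ube2d3: tccaTTTGtTCACtgctatGTGAtcCAAAc
Ube2c: cgtggacacCCAGGgCAacatcTGCCTGGa
Usp1: GGTGGtTGGgacaCCAtTCACCgacaatag

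RING ligases, the largest role with 41 genes, split: 15 were higher and 11 lower at E17.5 against E11.5 (median 0.12). The background over all genes was 29.8% higher and 28.8% lower. Rnf112, a brain-enriched RING protein with a GTPase domain, had 0 counts in the 3 E11.5 libraries and 23.0, 23.0 and 10.6 CPM at E17.5, at least 33.0-fold higher. Its middle stages were low, with 0.446, 0.239 and 1.74 CPM at E13.5 and 6.13, 1.55 and 0.747 at E15.5, and the last step was called (2.73 ± 0.65). Rnf123, the catalytic part of the ligase that degrades the cell-cycle inhibitor p27, rose by 2.11 ± 0.36. Of its 2 peaks, the 3' UTR peak lies opposite Gmppb on the other strand and rose by 2.43 ± 0.45, and the exon peak rose by 1.64 ± 0.51.

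Rnf165, which extends motor axons by raising BMP signalling, rose early and then stayed level. It had 181, 199 and 241 CPM at E11.5, 410, 399 and 567 at E13.5, 484, 489 and 473 at E15.5, and 516, 411 and 483 at E17.5. The first step was 1.15 ± 0.24 and the last -0.04 ± 0.24. Rnf220, known in neural tube patterning, rose more evenly, from 100 ± 21.2 CPM (SD, n = 3) to 308 ± 71.1 (1.62 ± 0.26).

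Among the RING genes that fell, Rnf145, an endoplasmic reticulum ligase of sterol control, went from 95.01 ± 2.77 CPM (SD, n = 3) to 21.2 ± 4.81 (-2.16 ± 0.26), mostly in the last step (-1.39 ± 0.25). Rnf26 fell by 2.06 ± 0.37. Of its 2 peaks, the one that lies opposite Gm47327 on the other strand changed by -1.59 ± 0.45 and the other by -2.36 ± 0.41, both called. Rnf7, a RING subunit of cullin complexes, fell by 1.67 ± 0.27, from 729 ± 91.1 CPM (SD, n = 3) to 228 ± 58.3. Rbx1, which the symbol rule does not cover, was not called at E17.5 against E11.5 (-0.29 ± 0.31). Rnf44 and Rnf10 were not called over the 4 stages.

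Of the 5 cullin scaffolds in the table, 1 was called at E17.5 against E11.5, beside 58.6% of all genes. Cul7, a cullin with a part in dendrite growth, stood at 3.79 to 5.16 CPM on average over the first 3 stages and at 11.9, 14.3 and 14.7 CPM at E17.5. Its last step was 1.83 ± 0.37. Cul1, Cul2, Cul4a and Cul5 had changes of -0.47 to -0.12 at E17.5 against E11.5 and were not called. Cul3 and Cul4b have no exonic row.

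Among members, the adaptors that bring targets to the cullins rose more often than they fell. Of 27 F-box genes 11 were higher and 4 lower (median 0.85), of 20 BTB genes 8 and 5 (0.34), and of 9 DCAF genes 5 and 2 (0.75). The background over all genes at E17.5 against E11.5 was 29.8% higher and 28.8% lower. Outside the symbol rule, the BTB genes Spop (-1.61 ± 0.32) and Spopl (-1.54 ± 0.42) were called lower. So was the F-box gene Skp2 (-2.92 ± 0.43), and the F-box gene Btrc was not called (0.65 ± 0.32). Over single libraries left out, F-box genes gave 10 to 12 higher and 3 to 4 lower, BTB genes 6 to 8 and 1 to 5, and DCAF genes 3 to 6 and 1 to 2, with the fewest BTB falls without E11.5 replicate 3 and the fewest DCAF rises without E11.5 replicate 1. Fbxo41, an F-box protein of neurons, had 0 counts at E11.5 and 10.3, 14.6 and 8.10 CPM at E17.5, at least 19.2-fold higher. Its E13.5 libraries held 0.446, 0.477 and 1.95 CPM and its E15.5 libraries 3.36, 0.889 and 5.05.

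Fbxo31, which acts in axon outgrowth and in cyclin D1 turnover, had 10.6, 8.03 and 37.6 CPM at E11.5, 36.8, 21.2 and 30.8 at E13.5, 65.1, 36.4 and 45.03 at E15.5, and 112, 106 and 137 at E17.5 (2.67 ± 0.45). The highest E11.5 library overlaps the middle stages, and all E17.5 libraries lie above the rest. Fbxl6 (2.83 ± 0.53) and Fbxo10 (2.21 ± 0.33) also rose. Fbxo5, the inhibitor of the anaphase-promoting complex also called EMI1, fell from 98.5, 74.1 and 40.1 CPM to 33.8, 10.8 and 15.9 (-1.81 ± 0.39). Fbxl7, a substrate receptor for Aurora A, fell by 2.21 ± 0.43, nearly all in the last step (-1.86 ± 0.42).

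Among BTB proteins, adaptors of CUL3, Klhl18 rose 9.21-fold, from 21.6, 30.9 and 26.5 CPM at E11.5 to 192, 311 and 224 at E17.5 (3.20 ± 0.38). Klhl29 rose early, from 26.4, 10.5 and 35.2 CPM at E11.5 to 59.5, 122 and 90.8 at E13.5 (1.91 ± 0.41), with a last step of -0.02 ± 0.37. Klhl2, an actin-binding adaptor, went from 142 ± 23.6 CPM (SD, n = 3) to 315 ± 39.9 (1.15 ± 0.26). Dcaf6 was the leading DCAF gene, with 29.3, 49.4 and 43.2 CPM at E11.5 and 231, 172 and 165 at E17.5 (2.22 ± 0.30). Fbxw7, Fbxo45, Fbxl16 and Klhl1 have no exonic row.

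Ubiquitin-specific proteases, the main family of deubiquitinases, moved in both directions: of 31 genes, 10 were higher and 7 lower (median 0.55), and Usp6nl is 1 of the 7. The background over all genes was 29.8% higher and 28.8% lower. Usp11, a protease active in neuronal differentiation, had 30.7, 33.3 and 16.0 CPM at E11.5, 59.3, 67.0 and 66.2 at E13.5, 62.9, 114 and 72.5 at E15.5, and 175, 131 and 152 at E17.5 (2.51 ± 0.32). Usp22, the protease of the SAGA complex, rose from 60.1, 174 and 123 CPM to 420, 931 and 461 (2.35 ± 0.41). Usp19 (2.72 ± 0.36), Usp5 (2.54 ± 0.44), which recycles free chains, and Usp20 (2.32 ± 0.44) rose as well. Usp7, the protease of MDM2, was not called over the 4 stages, with stage means of 391 to 600 CPM, and neither was Usp9x (7.43 ± 3.26 CPM (SD, n = 3) in the E11.5 libraries, 7.34 ± 3.32 in those of E17.5).

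Usp1, which trims ubiquitin from FANCD2 and PCNA in dividing cells, had a lower mean at each later stage. It had 380, 658 and 461 CPM at E11.5, 219, 263 and 278 at E13.5, 173, 172 and 145 at E15.5, and 62.3, 74.6 and 50.4 at E17.5, and no stage overlaps another. The change over the interval was -3.00 ± 0.28, an 8.004-fold drop (adjusted p = 1.55e-07, edgeR). The first step was -0.98 ± 0.26 (adjusted p = 0.00997, edgeR), a call lost without E11.5 replicate 2 (adjusted p = 0.0592) and with scaling by the summed counts (adjusted p = 0.0692), and the last step was -1.39 ± 0.26.

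Usp29, a gene of the imprinted Peg3 domain, had the steepest fall of all members. It had 74.5, 95.1 and 54.3 CPM at E11.5, 40.4, 48.7 and 43.9 at E13.5, 28.5, 46.9 and 35.1 at E15.5, and 6.497, 2.92 and 2.02 at E17.5. The drop was 19.5-fold (-4.28 ± 0.40), with -3.26 ± 0.39 in the last step. Its 4 peaks fell alike, by 3.57 to 4.59 on the log2 scale.

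None of these 4 peaks lies in the part of Usp29 that encodes the protease. All 4 are in the third and last exon of a non-coding transcript of the gene (chr7:6766289-6770139, GENCODE vM21), and the coding part begins 191021 bases beyond that exon, at 6961160. No exonic row of the table covers the coding part of Usp29. The 30-base window of lowest predicted energy over the 4 peaks (ENSMUSG00000051527, chr7:6769587-6769616, plus, -11.3 kcal/mol) is printed as an example of that RNA.
Usp29: GGAgTTCCAGAaaccTCTGGGAggaTCCgt

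Of 4 OTU proteases with an Otud symbol, 3 were lower at E17.5 (-1.25 to -0.76) and 0 higher, beside 28.8% and 29.8% of all genes. Otud6b fell by 1.25 ± 0.37, and without E11.5 replicate 1 its adjusted p was 0.0522 (edgeR) and no Otud gene was called. Outside the symbol rule, the OTU gene Otub1 was called higher at E17.5 against E11.5 (1.05 ± 0.41). Otulin (-0.13 ± 0.40) and Vcpip1 (-0.55 ± 0.35) were not called.

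The first and the last step share no library and can be set side by side. In both steps 9 of 186 members were called, and 0 changed direction. Of the 9, 6 were higher in both (Herc1, Trim3, Trim46, Trim67, Ube2ql1 and Usp11) and 3 lower in both (Ube2f, Usp1 and Usp6nl). Over all genes, 639 of 7654 were called in both steps, with 249 higher in both, 218 lower in both and 172 that changed direction. Members were called less often than all genes in each step, 15.6% against 25.3% in the first and 18.8% against 21.9% in the last. The 9 are not firm as a list. Leaving out single libraries gave 4 to 9 such members, the fewest without E11.5 replicate 2, and Trim67 was called in both steps with any library left out.

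**Figure D3:**
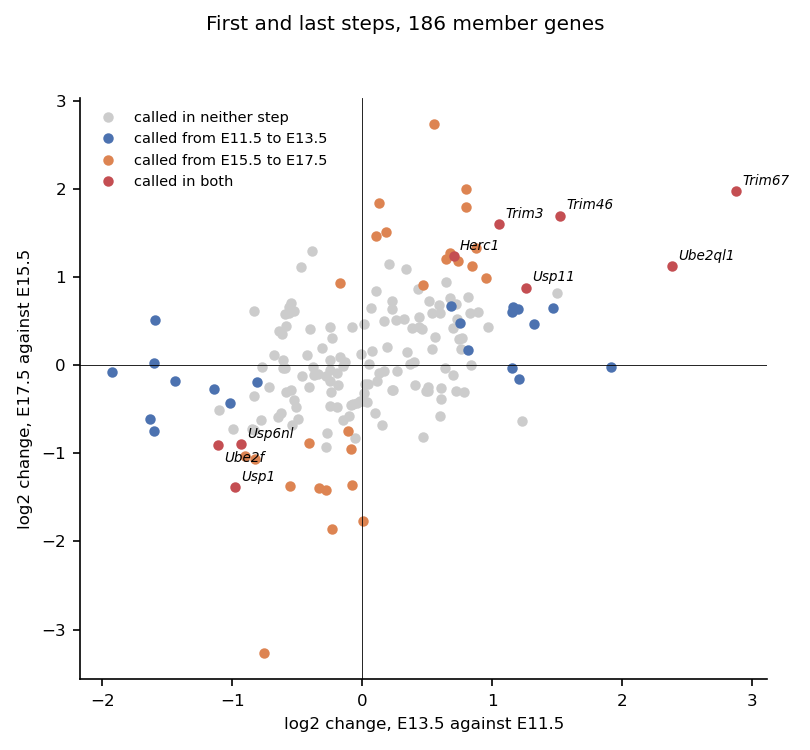
Each point is 1 of 186 members, with its log2 change at E13.5 against E11.5 on the x axis and at E17.5 against E15.5 on the y axis. Colours show in which step it was called, the 9 members called in both are named, and Trim67, Rnf112 and Fbxo41 are placed at their lower bounds on the x axis. The 9 named genes lie in the upper right or lower left, and the upper left and lower right hold only genes called in 1 step or in neither.

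By position, the authors' table put 161 member rows in 3' UTRs, 124 in exons and 40 in 5' UTRs, 49.5%, 38.2% and 12.3%, beside 48.7%, 43.0% and 8.26% over all genes. GENCODE places 27 of the 161 and 17 of the 40 in coding exons. Tested peak by peak at E17.5 against E11.5, 99 of the 325 rows were higher and 76 lower, against backgrounds of 26.4% and 26.2% (52.6% in either direction). Among 3' UTR rows 56 were higher and 28 lower of 161, and among 5' UTR rows 8 higher and 21 lower of 40. Over all genes the same lean was there, with 30.1% of 3' UTR rows higher and 23.4% lower, and 18.4% of 5' UTR rows higher and 36.8% lower.

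E2 genes account for much of the fall in 5' UTR rows. They hold 15 of the 40, from 12 genes, and 12 of the 15 were lower and 0 higher, while the other 25 rows split into 8 higher and 9 lower. Peaks of 1 gene are not independent: Ube2k has 3 of the 12 and Ube2f 2. Of the 15 rows, 9 are 5' UTR in GENCODE and 6 are coding exon. With single libraries left out, 9 to 12 of the 15 were lower, and 3 of these 12 fits called a row higher.

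**Figure D4:**
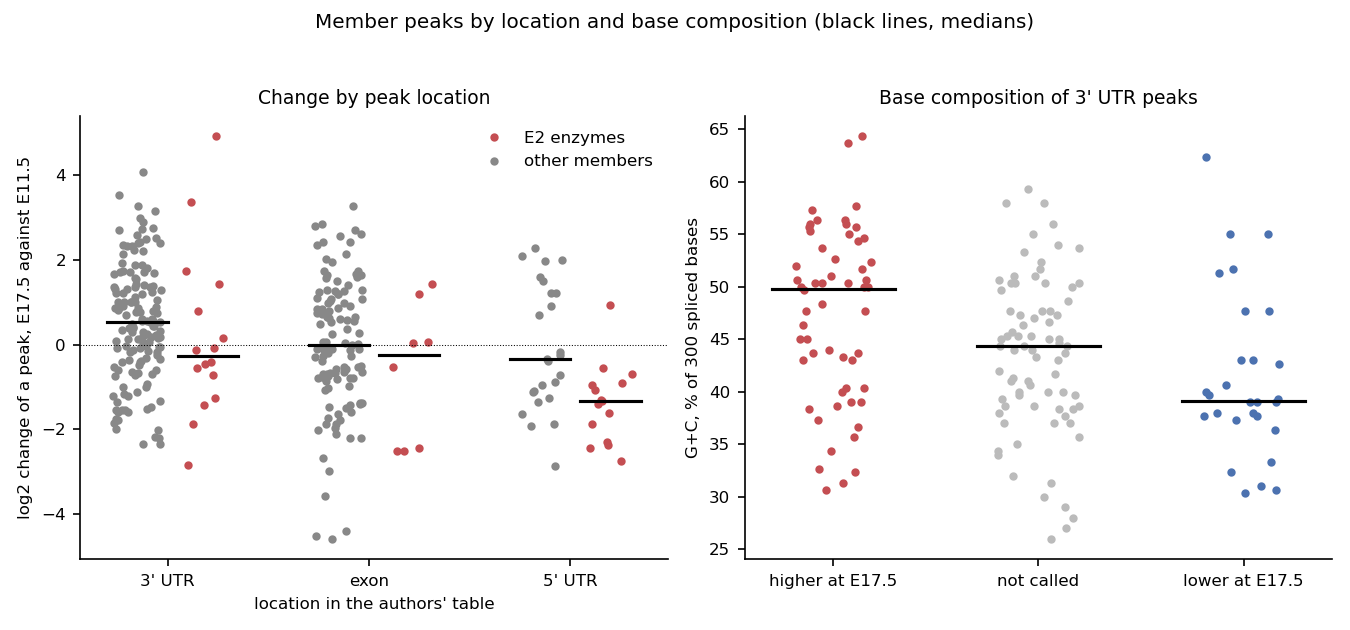
Left, the log2 change at E17.5 against E11.5 of each member peak (y axis) by the location in the authors' table (x axis), with E2 genes in red and other members in grey, and black lines at the medians. The peaks of Trim67, Rnf112 and Fbxo41, with 0 counts at E11.5, are not drawn. Right, the G+C content of the 300 spliced bases around each 3' UTR peak (y axis), by call (x axis). Medians are 49.8% for peaks called higher, 44.3% for those not called and 39.2% for those called lower.

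Base composition moved with the direction of change in 3' UTR peaks. In the 300 spliced bases around each 3' UTR peak, the median G+C content was 49.8% for the 56 member peaks called higher, 44.3% for the 77 not called and 39.2% for the 28 called lower. Over all genes the medians were 50%, 46.7% and 44.0%. The median predicted folding energy of the same stretches was -77.4, -72.0 and -66.7 kcal/mol in members, and G+C content and folding energy cannot be told apart here. Member peaks in exons had medians of 54.3% when higher, 50.7% when not called and 51.7% when lower, so there the order did not hold. For 5' UTR peaks the medians were 59.2%, 58% and 52.7% in members (8, 11 and 21 peaks). Over all genes they were 58.3%, 58.3% and 58%. Whether G+C content has a part in the change was not tested.

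Peaks of 1 gene that were called mostly had the same sign. Of 80 members with at least 2 tested peaks (43.0% of members, 43.2% of all genes), 37 had at least 2 called at E17.5 against E11.5. In 22 of these all calls were higher and in 13 all were lower. Of the 80, 27 had every peak called in 1 direction, 10 had 1 called peak and 33 had none. The median range of log2 change between the peaks of a gene was 0.69. In 2 genes, Rnf157 and Fbxw2, picked out after their values were seen, peaks were called in opposite directions.

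Rnf157, a neuronal RING ligase of dendrite growth and survival, rose by 2.71 ± 0.46 in its 3' UTR peak and fell by 1.88 ± 0.54 in an exon peak, and a peak between them changed by 0.83 ± 0.41, which was not called. The 3' UTR peak held 11.51, 23.2 and 7.47 CPM at E11.5 and 139, 48.7 and 88.1 at E17.5. The falling peak held 7.67, 31.4 and 19.3 CPM at E11.5 and 8.58, 4.51 and 2.55 at E17.5, so its lowest E11.5 library overlaps E17.5. Fbxw2, an F-box gene that was not called when summed (-0.16 ± 0.28), also had a rising and a falling peak.

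The 3' UTR peak of Fbxw2 held 52.3, 50.2 and 40.5 CPM at E11.5 and 78.6, 106 and 111 at E17.5 (1.05 ± 0.37). Its exon peak held 83.4, 113 and 45.4 CPM at E11.5 and 21.0, 13.24 and 25.5 at E17.5 (-2.01 ± 0.42), and its 5' UTR peak changed by -0.17 ± 0.43. In both genes the falling peak lies in the last exon of a non-coding transcript inside the gene, the second of 2 exons in Rnf157 (chr11:116402841-116404395) and the fourth of 4 in Fbxw2 (chr2:34811839-34813009), and no coding exon or UTR overlaps it.

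**Figure D5:**
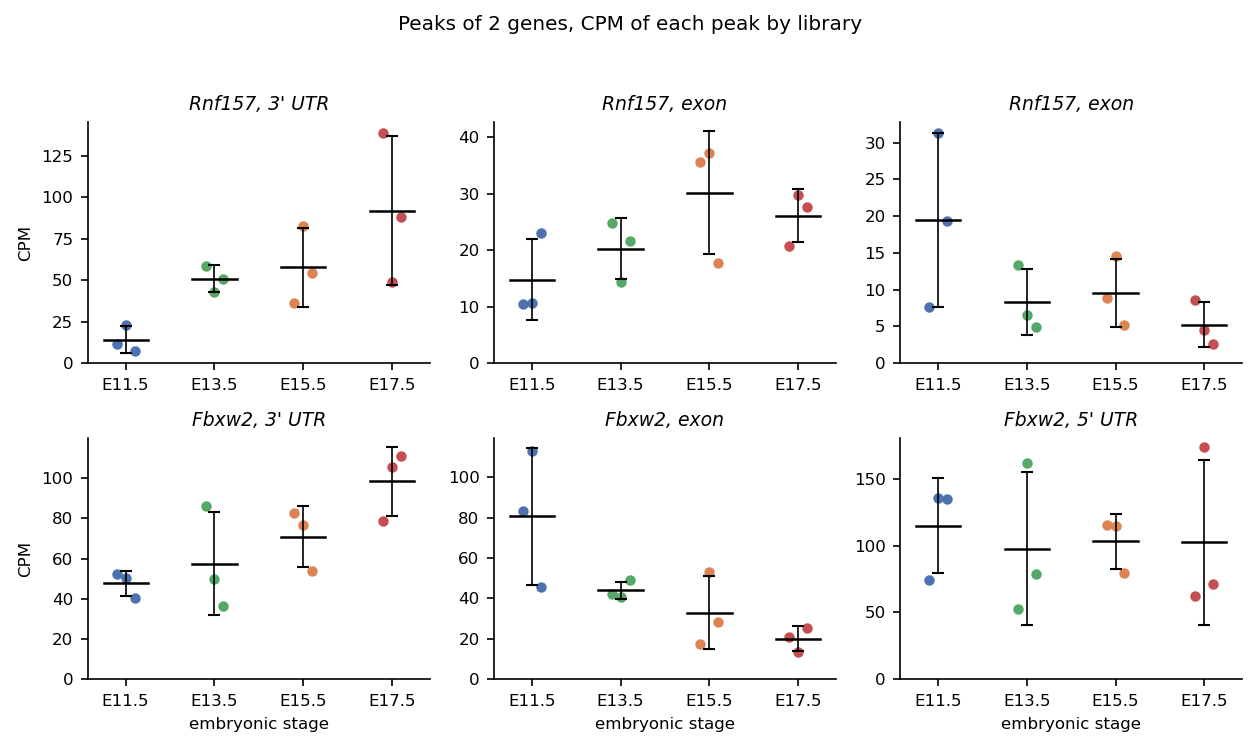
CPM of each exonic peak of Rnf157 (top) and Fbxw2 (bottom) on the y axis, by stage on the x axis, with locations from the authors' table. Points are libraries, horizontal bars means and vertical bars ± 1 SD of 3 libraries. In each gene the 3' UTR peak is higher at E17.5 than at E11.5 (Fbxw2, 78.6 to 111 against 40.5 to 52.3 CPM) and the exon peak in a non-coding last exon is lower.

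The windows of lowest energy are printed for the rising and the falling peak of each gene: Rnf157 3' UTR (chr11:116336468-116336497, minus, -9.8 kcal/mol), Rnf157 non-coding exon (chr11:116403977-116404006, minus, -10.2), Fbxw2 rising peak (chr2:34805706-34805735, minus, -10.2) and Fbxw2 non-coding exon (chr2:34812363-34812392, minus, -10.4). Of the 30 bases shown for the rising Fbxw2 peak, which the table calls 3' UTR, 22 are coding in GENCODE and 8 are UTR. The best local stems of the rising peaks have energies of -9.8 and -10.2 kcal/mol and those of the falling peaks -10.2 and -10.4. These predicted energies are nearly the same, and here too the number of windows searched was not held equal.
Rnf157 3' UTR: tGTGTACcCCtcacattcatGGaGTACACt
Rnf157 exon: GCCTTgTCTACatagcaaGcTGGAgGAGGC
Fbxw2 rising: GGTGTTAtGgAAggagcaTTgCTGACACCa
Fbxw2 exon: TACTTGCAGTTAgtggtTGGCTGCtAAGTG

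In all, 7 member peaks of 4 genes lie in exons without a coding or UTR part: 4 in Usp29 and 1 each in Rnf157, Fbxw2 and Trim39. Of these, 6 were lower and 0 higher at E17.5, and the Trim39 peak was not called (-1.03 ± 0.60). Over all protein-coding genes 169 such rows were tested, of which 30.8% were lower and 20.7% higher.

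Other parts of the ubiquitin system give the setting. Of 75 listed ubiquitin, E1 and further ligase genes, 45 were measured, of which 20 were higher and 8 lower at E17.5 than at E11.5 (median 0.35). Uba1, the main E1 enzyme, rose from 129 ± 34.8 CPM (SD, n = 3) to 708 ± 57.3 (2.46 ± 0.27), and Mib2, a ligase of Notch ligands, by 3.88 ± 0.36. Skp2, the F-box partner that degrades p27, fell by 2.92 ± 0.43. Of 19 other deubiquitinases listed, 11 were measured, with 3 higher and 3 lower, among them Uchl1, an abundant neuronal hydrolase, which rose by 2.79 ± 0.28. Of 32 proteasome genes listed, 18 were measured, with 8 higher and 1 lower (median 0.67). The background for each of these lists, over all genes, was 29.8% higher and 28.8% lower.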

How the data were processed

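RNA immunoprecipitated with an antibody against STAU2 from mouse cortex was sequenced by the submitters with ScriptSeq libraries, which mark the strand, after Ribo-Zero depletion, per the labels' protocols. The authors deposited whole-number read counts per merged peak and strand for 12 libraries. HOMER 4.10 is named in the submitters' processing notes, with mm10 and GRCm38 as genome builds. Neither the aligner nor the counting tool, nor what was done with multi-mapped reads, is given in the sources used here.

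Of 18975 rows, 4513 called Intergenic, 589 called Intron and 119 others without a gene were left out. The last held 46.0% to 61.3% of the non-intron, non-intergenic counts of a library. Counts were summed per gene over the remaining 13754 rows. Genes were tested with edgeR 4.0.16 (R 4.3.3): TMM scaling, filterByExpr by stage, the quasi-likelihood F test, 1 fit of all 12 libraries without a replicate block, and Benjamini-Hochberg adjustment over 7654 genes at 0.05. Its common biological coefficient of variation came to 0.295. The same fit was run on 13661 single rows. Standard errors are the log2 change divided by the square root of F. For a stage with 0 counts in its 3 libraries, folds were computed against 3 counts and are lower bounds. The fit was tested on simulated data. Alternatives were DESeq2 1.42.0 (test or size factors), scaling by totals, no filter, other choices of rows, a replicate block and leaving out each library.

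Locations and spliced sequences came from GENCODE vM21 (GRCm38), and folding energies from ViennaRNA 2.7.2 on 300 spliced bases around each peak (325 of 325 member peaks). Members, lists and tests were chosen with earlier results of these data known. Named genes are, for each step, the 8 largest rises and 8 largest falls past the threshold whose libraries do not overlap, 12 and 12 for E17.5 against E11.5, the highest member of each role, the 5 highest members without a call over 4 stages, and a fixed set. Genes outside this rule are given to complete a role, and some that it picks are not described. 1 gene of the group is counted in the totals and is not reported here by itself.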

Additional observations from a re-analysis of the deposited data

Results flagged for a closer look

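Rows called Intron were left out of the sums, and 11 of them carry symbols of the group, from 10 genes of which 8 have no exonic row. They are listed because they hold signal outside the main measurement, above the limit that a count of 0 allows, and no explanation was tested. Summed over the 12 libraries, the Btbd8 row held 561 counts, the Dcaf10 row 463, the Trim35 row 254, the Rnf146 row 387 and the Usp50 row 604. The Usp50 row has the coordinates of the Usp8 exon peak, on the opposite strand. The Kbtbd4 row held 157 counts, the Usp37 row 55 and the row of Ube4bos1, an opposite-strand gene at Ube4b, 42. The Ube4bos1 row has the coordinates of a Ube4b peak, on the opposite strand. Fbxl2 has 2 such rows, with 151 and 155 counts, and Rnf157 has 1 with 454. With Intron rows added to the fit, 3 genes without an exonic row were lower at E17.5 than at E11.5: Trim35 (-3.32, adjusted p = 2.51e-05), Btbd8 (-2.82, adjusted p = 0.000493) and Dcaf10 (-2.71, adjusted p = 0.000284, all edgeR). Over the pooled libraries, Trim35 went from 22.7 to 2.26 CPM between these stages, Btbd8 from 35.3 to 4.97 and Dcaf10 from 38.3 to 5.96. Kbtbd4 (-0.64, adjusted p = 0.437), Rnf146 (0.09, adjusted p = 0.884) and Usp50 (0.12, adjusted p = 0.907) were not called by edgeR.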

How the results depend on the processing

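Of 92 called results of named genes, 68 kept their call under every alternative run, and over 1725 alternatives 1604 kept the call, 121 lost it and 0 changed direction. The count of members called at E13.5 against E11.5 (29) became 48 with scaling by totals and 19 with 3' UTR rows only, at E15.5 against E13.5 (1) it became 2 with the DESeq2 test and 0 with 3' UTR rows only, at E17.5 against E15.5 (35) it became 23 with 3' UTR rows only, and over the 4 stages (92) 61 with 3' UTR rows only, where 133 members could be tested. The last choice tests fewer genes, and the cause of the other shifts was not tested. Leaving out 1 library gave 18 to 30, 0 to 1, 20 to 33 and 83 to 95 for these counts, 99 to 113 for E17.5 against E11.5 (112) and 148 to 176 for peaks (175). The split into higher and lower at E13.5 against E11.5 was 17 and 20 with DESeq2, and at E17.5 against E15.5 it was 23 and 11 with DESeq2 size factors and 13 and 17 with scaling by totals. The replicate block gave 33, 1, 37, 114 and 97 called genes and 177 peaks. Over the 4 stages the replicate numbers were not taken to pair the libraries, since 11 of 18 same-number pairs, not all, correlated above 0.1 (range -0.183 to 0.51), beside 9 of 36 different-number pairs. All 3 pairs of E13.5 with E15.5 did (0.116, 0.123 and 0.148), as did all 6 pairs of replicate 2, and 6 of 12 libraries correlated best with their own number. Single-step calls were the less firm: 13 of 29 in the first step and 15 of 35 in the last held with any library left out. Low counts at E11.5 limit what can be said of genes near the floor.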
